A study of Mus musculus with 16 samples.

Results

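The transporters described here carry glutamate, glucose, other sugars, amino acids, inhibitory transmitters and lactate across cell membranes. They were taken by name alone, as every deposited gene symbol made of Slc, the family number 1, 2, 6, 7 or 16, the letter a and a member number. The rule gave 67 of the 55487 gene symbols, with 7 members in Slc1, 12 in Slc2, 19 in Slc6, 15 in Slc7 and 14 in Slc16.

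Slc1 proteins take up glutamate or exchange neutral amino acids, and most Slc2 proteins carry glucose and other sugars down their gradients. Slc6 proteins use the sodium gradient to take up GABA, glycine, taurine or creatine, Slc7 proteins carry amino acids, many of them bound to a heavy chain, and Slc16 proteins carry lactate, aromatic amino acids and other molecules. In the spinal cord, astrocytes clear glutamate, GABA and glycine from synapses, and endothelial cells form the barrier across which glucose and large amino acids reach the tissue.

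Single spinal cord cells of 16 mice were measured as 10x Genomics 3′ libraries, 1 library per mouse, from uninjured mice or from mice 1 d, 7 d or 14 d after a lesion of the cervical dorsal columns. WT mice were Ryk+/+,GFAPcreERT2 and cKO mice were Rykfl/fl,GFAPcreERT2, so that both genotypes carried the tamoxifen-inducible Cre driven by the GFAP promoter. Mice were 8 to 10 weeks old and received tamoxifen daily for 7 days from 5 d before the operation, and the labels call the uninjured mice sham. Each of the 8 conditions had 2 mice.

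The authors counted unique molecular identifiers (UMIs), each standing for 1 captured RNA molecule, and deposited the counts of 18203 cells. WT 1 d replicate 2 held 1 cell with 266 UMIs and was left out, so that WT 1 d rests on 1 mouse. The 15 other mice held 536263 to 9008729 UMIs. The first replicates of WT 1 d, WT 7 d, cKO 1 d and cKO 7 d were the shallowest, with medians of 414 to 548 UMIs per cell against 1040.5 to 3637 in the 11 others. These 4 libraries also shared cell barcodes, 28 to 115 in each of their 6 pairs against at most 4 in the 114 other pairs, and 335 of their 5237 cells had a shared barcode. For 6 mice, all replicate 2, the deposited cell names carry a condition other than that of the sample title, and the titles were used. Leaving out the 4 libraries or the cells that share barcodes, or taking the conditions from the cell names, left at 0 every count of members that passed with adjustment over all genes.

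Levels are in CPM, the UMIs of a gene scaled to a common total of UMIs for each cluster of each mouse, given as mean ± SD over the mice with at least 10 cells of the cluster. Clusters are those of the authors, who named Clusters 2, 5 and 7 astrocytes, Clusters 4 and 8 oligodendrocytes and Clusters 6 and 10 microglia. These are called by number here, because several share 1 name or lacked their own markers among their 10 leading genes. Cluster 13 is called by number too, and its 10 leading genes include the ependymal cell markers Tmem212, Ccdc153 and Dynlrb2. All 8 astrocyte markers examined were detected in Clusters 5, 7 and 2, with sums of 11002 ± 2139 CPM, 6112 ± 664 and 6251 ± 1591, against 621 ± 502 in endothelial cells and 1157 ± 522 in neurons. Oligodendrocyte markers summed to 17508 ± 8468 CPM in Cluster 2 and 10388 ± 6478 in Cluster 5, against 1952 ± 662 in Cluster 7.

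Ryk, the targeted gene, was detected in Cluster 7 of all 15 mice and in Cluster 5 of 13 of 14 mice. In Cluster 7, Ryk was at 123 and 138 CPM (WT) and 78.3 and 192 (cKO) in uninjured mice, at 129 (WT) and 36.1 and 117 (cKO) 1 d, at 239 and 147 (WT) and 56.1 and 138 (cKO) 7 d and at 152 and 139 (WT) and 165 and 153 (cKO) 14 d after injury. In Cluster 5, the values in the same order were 139 and 44.3 CPM (WT) and 71.8 (cKO), 73.6 (WT) and 0 and 56.1 (cKO), 46.9 and 85.9 (WT) and 142 and 96.1 (cKO) and 65.8 and 76.1 (WT) and 78.5 and 100.0 (cKO). Over all mice the genotypes overlapped in both clusters. Within time points of Cluster 7, each cKO mouse lay below each WT mouse at 1 d and 7 d and above each WT mouse at 14 d, and in Cluster 5 below at 1 d and above at 7 d and 14 d. The shallow libraries held few UMIs of Ryk. WT 1 d replicate 1 held 2 in Cluster 5 and 4 in Cluster 7, and cKO 1 d replicate 1 held 0 and 1. Counts this low do not fix an order. Reads from the 3′ end of the transcript need not cover a deleted exon, so the Ryk counts do not check the genotype labels.

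The cell classes differed in the transporters counted in them. All 67 members had at least 1 UMI, 17 of them fewer than 100 UMIs in all cells, and 34 had a mean of 50 CPM or more in at least 1 of the 17 clusters. Endothelial cells had 10 members at 50 CPM or more, neurons 13, Cluster 5 13 and Cluster 7 12, and the 12 of Cluster 7 were all among those of Cluster 5. Only Slc1a2 and Slc2a1 reached a mean of 50 CPM in all 4 of these clusters. In endothelial cells, Slc1a2 was at 17.1 to 54.5 CPM in the 6 mice with animal numbers below 10000, under 50 in 5 of them, and at 159 to 1019 in the 9 others. Summed over the 67 members, the level was 11388 ± 1112 CPM in Cluster 7 and 10817 ± 2237 in Cluster 5, 6152 ± 943 in endothelial cells, 3164 ± 552 in pericytes and 2307 ± 355 in neurons. Without the 4 libraries that share barcodes, 11 members reached 50 CPM in Cluster 5, 11 in Cluster 7, 10 in endothelial cells and 15 in neurons. With each mouse left out in turn, Cluster 7 had 12 and endothelial cells 10, Cluster 5 had 12 or 13, and neurons had 13, or 12 without WT 1 d replicate 1.

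The families divided differently between the classes. Slc6 members at 50 CPM or more numbered 6 in neurons (5 without WT 1 d replicate 1), 4 in Cluster 5, 3 in Cluster 7 and 1 in endothelial cells. The 6 include Slc6a9 and Slc6a11, which were higher in Cluster 7, and the part of the astrocyte UMIs of the neurons in these levels was not tested. Slc16 members numbered 0 in neurons, 1 in each of Clusters 5 and 7, and 4 in endothelial cells. Slc1 and Slc7 members numbered 3 and 4 in each of Clusters 5 and 7, 2 and 2 in endothelial cells, and 3 and 2 in neurons. Those of neurons include Slc1a2, Slc1a3 and Slc7a10, which were higher in Cluster 7, and the part of astrocyte UMIs in them was not tested either. Without the 4 libraries that share barcodes, Slc7a5 and Slc7a11 fell under 50 CPM in Cluster 5, and Slc16a1 in Cluster 7.

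**Figure D1:**
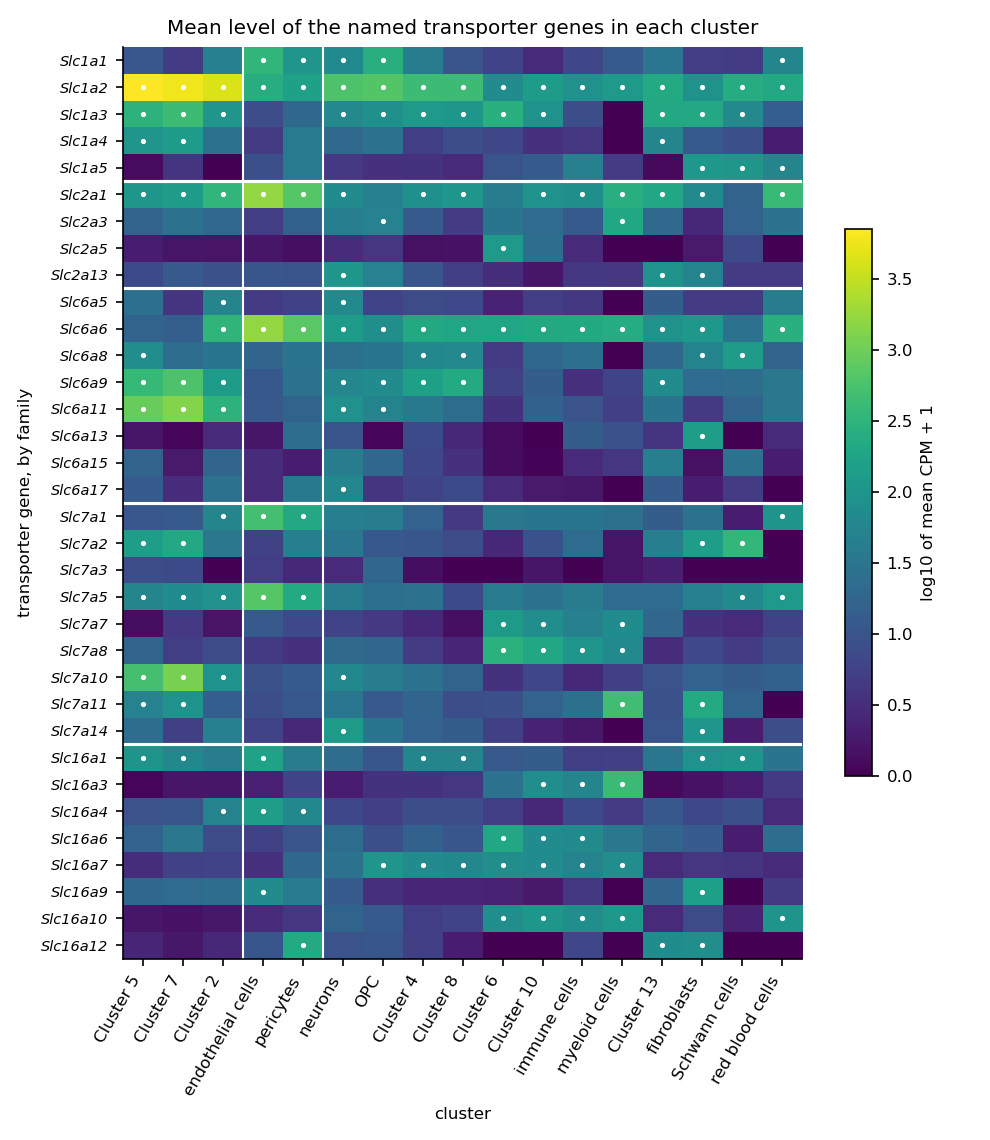
Mean level of 34 named transporter genes (lines, by family) in each of the 17 clusters (columns), as the log10 of CPM plus 1, with a white point where the mean was 50 CPM or more. Slc1a2 had its highest mean in Cluster 5, and Slc2a5 reached 50 CPM in Cluster 6 and in no other cluster.

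Of the glutamate transporters, Slc1a2 (chromosome 2, 102658659 to 102790784; positions are in mm10 throughout) encodes the main glutamate uptake carrier of astrocytes. It was at 7132 ± 2068 CPM (SD, n = 14) in Cluster 5, with lowest 3792, median 6859.8 and highest 9827, and at 5902 ± 974 (SD, n = 15) in Cluster 7, with lowest 4401, median 5856 and highest 7854. Every mouse of Clusters 5 and 7 lay above every mouse of the neurons, where Slc1a2 was at 595 ± 242 CPM (SD, n = 15). Within single mice, the log2 difference of Cluster 7 minus endothelial cells averaged 4.83 ± 1.25 and was above 0 in 15 of 15 mice; differences between clusters were taken on CPM plus 50 and have no p, because the clustering had used the same counts. Slc1a2 was also at 672 ± 408 CPM in OPC and 88.7 ± 107 in immune cells. In immune cells it averaged 7.05 CPM in the 4 mice with animal numbers below 10000 and 143 in the 6 others. The part of astrocyte UMIs in the level of immune cells was not tested.

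Slc1a3 (chromosome 15, 8634124 to 8710764), the other glial glutamate carrier, was at 443 ± 168 CPM in Cluster 7, 307 ± 176 in Cluster 5 and 65.2 ± 37.0 in neurons, and was at 7.08 ± 6.15 in endothelial cells. It was higher in Cluster 7 than in neurons in 15 of 15 mice, by 2.09 ± 0.53 on the log2 scale. Slc1a1 (chromosome 19, 28835049 to 28913960), known as a neuronal carrier of glutamate and cysteine, had its highest mean in endothelial cells, at 344 ± 84.3 CPM, against 260.5 ± 85.7 in OPC and 68.2 ± 28.5 in neurons. Endothelial cells exceeded neurons in 15 of 15 mice, by 1.76 ± 0.50. Of the neutral amino acid exchangers, Slc1a4 was at 129 ± 40.6 CPM in Cluster 7 and 100.3 ± 110.5 in Cluster 5, where the mice numbered 10000 or more averaged 56.7. Slc1a5 was at 111 ± 96.4 CPM in fibroblasts and 108 ± 79.6 in Schwann cells. The 2 other Slc1 members stayed under 50 CPM in every cluster.

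Slc6a11 (chromosome 6, 114131241 to 114249952), a GABA transporter, was highest in the astrocyte clusters. It was at 1364 ± 269 CPM in Cluster 7, 899.8 ± 552 in Cluster 5 and 87.8 ± 28.6 in neurons. In Cluster 7 minus neurons, Slc6a11 differed by 3.36 ± 0.45 on the log2 scale, above 0 in 15 of 15 mice.

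For glycine, the carriers differed between Cluster 7 and neurons. Slc6a9 (chromosome 4, 117834506 to 117875198), the glial glycine transporter, was at 605 ± 125 CPM in Cluster 7, 376 ± 145 in Cluster 5, 225 ± 66.0 in Cluster 8 and 59.1 ± 30.9 in neurons. Slc6a5, which reloads the terminals of glycinergic neurons, was at 69.3 ± 42.4 CPM in neurons and 2.98 ± 4.09 in Cluster 7. In the other clusters that the authors named astrocytes, Slc6a5 was at 56.7 ± 55.7 CPM (Cluster 2) and 24.7 ± 24.7 (Cluster 5). The neuron marker Nefl was among the 10 leading genes of Cluster 2. In mice with animal numbers below 10000, Slc6a5 was at 0 in both clusters (2 mice of Cluster 2 and 5 of Cluster 5). The 9 other mice averaged 69.2 CPM in Cluster 2 and 38.4 in Cluster 5. The part of neuronal UMIs in these levels was not tested. Slc6a9 was higher in Cluster 7 than in neurons in 15 of 15 mice, and Slc6a5 was lower in 13 of 15 mice.

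Slc6a6 (chromosome 6, 91684053 to 91759066) encodes the taurine transporter and had its highest mean in endothelial cells. It was at 1704 ± 447 CPM (SD, n = 15) there, with lowest 833, median 1767 and highest 2302, at 744 ± 257 in pericytes, 184 ± 47.6 in Cluster 6, 129 ± 62.1 in neurons and 13.8 ± 23.6 in Cluster 7, or 8.76 there without WT 14 d replicate 2. Endothelial cells were higher than Cluster 7 in 15 of 15 mice, with a mean difference of −4.80 ± 0.62 as Cluster 7 minus endothelial cells. The creatine carrier Slc6a8 was at 77.2 ± 61.1 CPM in Cluster 5. Slc6a13, which carries GABA and taurine, was at 145 ± 114 CPM in fibroblasts, and Slc6a17, which loads neutral amino acids into synaptic vesicles, was at 61.0 ± 58.7 in neurons. Without WT 1 d replicate 1, whose 18 neurons held 2 UMIs of Slc6a17, that mean was 46.5 CPM. Slc6a15 did not reach 50 CPM in any cluster.

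Slc7a10 (chromosome 7, 35186385 to 35201114), which exchanges D-serine, glycine and other small neutral amino acids, was among the 10 leading genes of Cluster 7. It was at 1174 ± 245 CPM (SD, n = 15) there, with lowest 879.7, median 1154 and highest 1865, at 518 ± 293 (SD, n = 14) in Cluster 5 and at 61.8 ± 37.7 in neurons. Cluster 7 minus neurons averaged 3.51 ± 0.48 on the log2 scale and Cluster 7 minus endothelial cells 4.39 ± 0.37, each above 0 in all 15 mice. Slc7a11, the cystine and glutamate exchanger, was at 471 ± 453 CPM in myeloid cells, 222 ± 298 in fibroblasts, 95.8 ± 38.3 in Cluster 7 and 50.6 ± 44.8 in Cluster 5. Its mean was 277 CPM in myeloid cells without cKO 7 d replicate 2, and 131 in fibroblasts without cKO 1 d replicate 1. Slc7a2, a carrier of cationic amino acids, was at 349 ± 114 CPM in Schwann cells, 208 ± 45.0 in Cluster 7 and 4.50 ± 4.02 in endothelial cells.

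Endothelial cells held 2 Slc7 members at 50 CPM or more, Slc7a5 and Slc7a1. Slc7a5 (chromosome 8, 121881150 to 121907694), which carries large neutral amino acids across the blood-brain barrier, was at 696 ± 190.3 CPM (SD, n = 15) in endothelial cells, 226 ± 101 in pericytes, 72.9 ± 45.7 in Cluster 7 and 42.5 ± 30.5 in neurons. Slc7a1, a carrier of arginine and other cationic amino acids, was at 502 ± 185 CPM in endothelial cells, 207 ± 95.3 in pericytes and 43.0 ± 28.5 in neurons. Both were higher in endothelial cells than in neurons in 15 of 15 mice, by 3.03 ± 0.62 for Slc7a5 and 2.55 ± 0.43 for Slc7a1 on the log2 scale. Slc7a8 and Slc7a7, exchangers of neutral and of cationic amino acids, had their highest means in Cluster 6, at 284 ± 63.0 CPM and 125 ± 44.6, and Slc7a8 was lower in Cluster 7 than in Cluster 6 in 14 of 14 mice. Slc7a14 was at 126 ± 115 CPM in neurons, or 97.2 without WT 1 d replicate 1, and at 99.7 ± 139.6 in fibroblasts, or 58.0 there without WT 14 d replicate 1. Slc7a3 did not reach 50 CPM anywhere.

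Among the sugar carriers, Slc2a1 (chromosome 4, 119108711 to 119137983), the glucose transporter of the blood-brain barrier, was at 1693 ± 550.1 CPM (SD, n = 15) in endothelial cells, with lowest 1131, median 1586 and highest 2969.7. It was at 678 ± 259.9 CPM in pericytes, 134 ± 46.8 in Cluster 7, 110.2 ± 81.9 in Cluster 5, 70.1 ± 44.2 in neurons and 40.4 ± 23.7 in Cluster 6. Among the mice numbered 10000 or more, Slc2a1 averaged 62.5 CPM in Cluster 5. The difference within mice was 3.90 ± 0.61 for endothelial cells minus neurons and −3.23 ± 0.49 for Cluster 7 minus endothelial cells, with the same sign in 15 of 15 mice each. Slc2a3, known as the glucose carrier of neurons, was at 43.7 ± 18.5 CPM in neurons, 50.2 ± 31.7 in OPC and 204 ± 183 in myeloid cells, or 129.9 there without cKO 7 d replicate 2.

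Slc2a5 (chromosome 4, 150119283 to 150144169), a fructose carrier known in microglia, was among the 10 leading genes of Cluster 6, at 119 ± 65.0 CPM (SD, n = 14) there and 23.3 ± 44.1 (SD, n = 14) in Cluster 10. Without cKO uninjured replicate 2, which held 4 UMIs of Slc2a5 in Cluster 10, the mean of Cluster 10 was 12.1 CPM. Cluster 6 exceeded Cluster 10 in 14 of 14 mice, by 1.24 ± 0.49 on the log2 scale. Slc2a13, which carries inositol, was at 104 ± 56.7 CPM in neurons and 93.3 ± 60.6 in Cluster 13. The 8 other Slc2 members stayed under 50 CPM in every cluster.

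The lactate carriers were low in neurons and differed between the other classes. Slc16a1 (chromosome 3, 104638668 to 104658462) was at 166 ± 55.7 CPM (SD, n = 15) in endothelial cells, 97.6 ± 84.7 in Cluster 5, 62.0 ± 39.1 in Cluster 7 and 23.2 ± 21.8 in neurons. It was lower in Cluster 7 than in endothelial cells in 13 of 15 mice, by −0.98 ± 0.78 on the log2 scale. Without the 4 libraries that share barcodes, its mean in Cluster 5 was 50.4 CPM. Slc16a7, known as the high-affinity lactate carrier of neurons, was at 103 ± 54.3 CPM in OPC, 79.9 ± 41.1 in Cluster 6, 74.0 ± 62.1 in Cluster 10 and 27.4 ± 13.5 in neurons. Slc16a3, which exports lactate from glycolytic cells, was at 417 ± 270.3 CPM in myeloid cells, 76.3 ± 49.8 in Cluster 10 and 27.3 ± 14.0 in Cluster 6.

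Slc16a4 was at 138 ± 37.0 CPM in endothelial cells, and Slc16a9 at 147 ± 73.6 in fibroblasts and 72.0 ± 31.7 in endothelial cells. Slc16a12, a creatine carrier, was at 229.6 ± 115 CPM in pericytes and was lower in endothelial cells than in pericytes in 15 of 15 mice. Slc16a6 had its highest mean in Cluster 6, at 198 ± 67.2 CPM, and Slc16a10, which carries aromatic amino acids, was at 109 ± 58.4 in Cluster 10 and 78.5 ± 37.3 in Cluster 6.

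Pericytes held the same leading endothelial carriers at lower levels. Endothelial cells minus pericytes averaged 1.29 ± 0.42 for Slc2a1, 1.18 ± 0.63 for Slc6a6, 1.47 ± 0.34 for Slc7a5, 1.45 ± 0.56 for Slc1a1 and 1.23 ± 0.43 for Slc16a1 on the log2 scale, above 0 in 15 of 15 mice for each. Endothelial markers summed to 6551 ± 1553 CPM in pericytes, with all 8 detected, against 16771 ± 1729.7 in endothelial cells, and the part of those UMIs in the pericyte levels was not tested.

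Partner genes of these carriers differed between the classes too. Bsg, the chaperone of the lactate carriers, was at 8851 ± 2217 CPM in endothelial cells, 293 ± 88.2 in Cluster 7 and 279 ± 140.2 in neurons. Slc3a2, the heavy chain that Slc7 carriers bind, was lower in Cluster 7 than in endothelial cells in 15 of 15 mice, by −0.89 ± 0.39 on the log2 scale. Glul, which makes glutamine from glutamate, was at 1188 ± 490.0 CPM in Cluster 5, 482 ± 154 in Cluster 7, 673 ± 87.3 in endothelial cells and 269 ± 149 in neurons. Of the glutamine carriers, Slc38a5 was at 211 ± 61.0 CPM in endothelial cells and 1.10 ± 2.23 in Cluster 7 (6 UMIs in all), and Slc38a3 was at 279 ± 61.9 in Cluster 7, 198 ± 61.6 in endothelial cells and 18.4 ± 11.4 in neurons.

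Clusters 5 and 7 shared their transporters but not the levels. Slc7a10 was lower in Cluster 5 than in Cluster 7 in 13 of 14 mice, by −1.19 ± 0.65 on the log2 scale. Slc6a11 and the glycine carrier Slc6a9 were lower as well, by −0.71 ± 0.58 for Slc6a11 and −0.62 ± 0.41 for Slc6a9, and Slc1a3 was lower in 12 of 14 mice. Slc1a2 was higher in Cluster 5 in 12 of 14 mice, by 0.23 ± 0.30, and Glul in 13 of 14 mice, by 1.14 ± 0.66. Among mice numbered below 10000, means of Clusters 5 and 7 were 1380 and 1417 CPM for Slc6a11, 464 and 441 for Slc1a3, and 5148 and 5304 for Slc1a2. Among mice numbered 10000 or more they were 633 and 1328, 220 and 444, and 8235 and 6301. For Slc7a10 they were 803 and 1291 below 10000 and 359 and 1096 in the others. For Slc6a9 they were 450 and 630, and 336 and 588.

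In Cluster 5 Slc7a10 and Slc6a11 also divided by animal number, a label that divides the mice into a series below 10000 and one of 10000 or more. Slc7a10 was at 803 ± 302 CPM (571 to 1326) in the 5 mice below 10000 and at 359 ± 121 (208 to 532) in the 9 others, without overlap. Slc6a11 was at 1379.8 ± 679 CPM (884 to 2575) against 633 ± 202 (358 to 994), with overlap. In Cluster 7, both genes overlapped between the series. The series was not one of the study's groups, and it held time points unequally, because all mice at 14 d had numbers of 10000 or more and the 4 shallow libraries had numbers below 10000. The summed oligodendrocyte markers of Cluster 5 (7 of 7 detected, most abundant Mbp) were 2467, 1657, 3782, 2252 and 3766 CPM in the 5 mice below 10000, and from 8953 to 18702 in the 9 others. The part of these markers and of depth in the split was not tested.

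**Figure D2:**
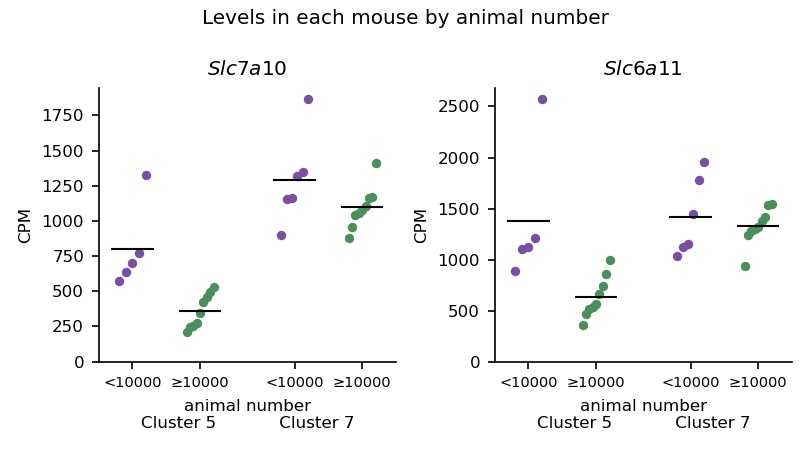
Levels of Slc7a10 and Slc6a11 in CPM (vertical axes) in each mouse (points) of Clusters 5 and 7, by animal number below 10000 or of 10000 and more (horizontal axes), with lines at the means. Slc7a10 does not overlap between the series in Cluster 5 and overlaps in Cluster 7.

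Clusters 6 and 10, both called microglia by the authors, shared Slc7a8, Slc7a7 and Slc16a10 and differed in others. Slc2a5 was higher in Cluster 6 in every mouse, and Slc16a6 in 13 of 14 mice, by 1.02 ± 0.65 on the log2 scale. Against Cluster 7, Cluster 6 was higher for Slc7a8, Slc2a5, Slc7a7, Slc6a6 and Slc16a10 in 14 of 14 mice, with differences of Cluster 7 minus Cluster 6 of −2.61, −1.64, −1.68, −1.89 and −1.29.

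All 67 members could be placed on the genome, on 18 chromosomes, 4 of them on X. Pairs of members within 100000 bp of each other numbered 7. Of the named members, 9 overlap another annotated gene on the same strand, among them Slc1a3, Slc2a1, Slc6a6, Slc7a11 and Slc16a1.

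To ask how the transporters stood after injury, each time point and the mean of the 3 were set against uninjured mice, averaged over the genotypes, so that these 4 comparisons share the uninjured mice. The edgeR quasi-likelihood test with Benjamini-Hochberg adjustment was run over all genes of each cluster that had enough counts. Of 192 tests of members over 10 clusters, 0 had an adjusted p under 0.05 in any of the 4 comparisons, and 55 had an unadjusted p under 0.05. In DESeq2 0 passed as well, and 29 had an unadjusted p under 0.05. Of all 75264 tests of genes, 0.268% passed in edgeR and 0.267% in DESeq2, and 16.7% and 8.16% had an unadjusted p under 0.05. Adjusted over the list alone, within each cluster and comparison, 7 of the 192 passed in edgeR, 5 in Cluster 6 and 2 in Cluster 7, and 2 in DESeq2, in other clusters. The edgeR count was 1 with at least 30 cells of a cluster per mouse (9 clusters) and 24 with the animal number series in the fit. Single mice left out gave from 3 (without WT 7 d replicate 1) to 10 (without WT 14 d replicate 2). In Cluster 6 alone it was 0 with the conditions of the cell names, 2 with the replicate number in the fit, and 1 without WT uninjured replicate 1 or without cKO uninjured replicate 2. In Cluster 7 it was 0 with scaling by total counts, with at least 30 cells per mouse, with cells of 1000 UMIs or more, in mice numbered 10000 or more, without the libraries or the cells that share barcodes, and without any 1 of 8 of the 15 mice. Earlier results of these data were known when the list was chosen, so this smaller adjustment is not independent evidence.

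In Cluster 7, the levels of the glutamate carrier Slc1a2 overlapped at all times. There, Slc1a2 was at 6204 and 5448 CPM (WT) and 5856 and 4873 (cKO) in uninjured mice and at 5026 (WT) and 5482 and 5973 (cKO) 1 d after injury. Slc1a2 stood at 4857 and 7854 CPM (WT) and 4401 and 6531 (cKO) at 7 d and at 5758 and 6189 (WT) and 6444 and 7640.0 (cKO) at 14 d. The times overlapped, and the log2 difference of injured minus uninjured mice was −0.04, with a 95% confidence interval of −0.54 to 0.46.

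The exchanger Slc7a10 was at 1316 and 1166 CPM (WT) and 1865 and 1411 (cKO) in uninjured mice and at 1159.8 (WT) and 1154 and 955 (cKO) 1 d after injury. Slc7a10 stood at 902 and 1059 CPM (WT) and 1346 and 1079.8 (cKO) at 7 d and at 1105 and 879.7 (WT) and 1171 and 1039 (cKO) at 14 d. All 4 uninjured mice lay above the median of the 15 mice, and injured and uninjured mice overlapped. Its mean was 1077 CPM in 11 injured mice against 1439.6 in 4 uninjured mice, a log2 difference of −0.53 ± 0.22 (SE), with an adjusted p of 0.564 (edgeR quasi-likelihood test, Benjamini-Hochberg). Slc6a9 averaged 555 CPM after injury against 742, and its 3 mice at 1 d, at 548 (WT) and 433 and 450.2 (cKO), lay below the uninjured mice, at 655 and 732 (WT) and 926 and 657 (cKO). Slc2a1 averaged 117 against 182 CPM, with 239 and 159 (WT) and 143 and 187 (cKO) in uninjured mice and 79.6 and 144 (WT) and 56.1 and 116 (cKO) at 7 d. The levels of 79.6 and 56.1 CPM came from shallow libraries, with 37676 and 35670 UMIs of all genes in Cluster 7. The libraries at 144 and 116 CPM held 291696 and 995562. The adjusted p by the same edgeR quasi-likelihood test and Benjamini-Hochberg adjustment was 0.552 for Slc6a9 and 0.517 for Slc2a1. Slc7a2 averaged 218 CPM in injured and 179 in uninjured mice, with overlap and an adjusted p of 0.913 in this edgeR quasi-likelihood test with Benjamini-Hochberg adjustment.

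The second glutamate carrier Slc1a3 was at 583 and 289.8 CPM (WT) and 391 and 406 (cKO) in uninjured mice and at 129 (WT) and 433 and 313 (cKO) 1 d after injury. Slc1a3 stood at 664 and 398 CPM (WT) and 449 and 306 (cKO) at 7 d and at 783 and 475 (WT) and 375 and 647 (cKO) at 14 d. Means were 291 CPM at 1 d and 570.1 at 14 d, with overlap. Slc7a11 was at 121 and 118 CPM (WT) and 136 and 122 (cKO) at 14 d and at 85.3 and 79.7 (WT) and 78.3 and 48.1 (cKO) in uninjured mice, without overlap, and Slc7a5 at 17.9 and 36.0 (WT) and 56.8 and 56.6 (cKO) against 75.0 and 72.4 (WT) and 91.3 and 85.5 (cKO), also without overlap. At 1 d Slc7a5 stood at 96.6 CPM (WT) and 216 and 68.7 (cKO), a mean of 127 against 81.1 in uninjured mice. Without cKO 1 d replicate 1, a shallow library with 6 UMIs of Slc7a5, the 1 d mean was 82.7 CPM. By the edgeR quasi-likelihood test with Benjamini-Hochberg adjustment the difference of 14 d minus uninjured mice was 0.85 for Slc7a11 (adjusted p = 0.443) and −0.95 for Slc7a5 (adjusted p = 0.434) on the log2 scale.

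Of the 19 members tested in Cluster 7, 0 passed in edgeR and 0 in DESeq2, and 13 and 7 had an unadjusted p under 0.05. Of all 7966 genes tested there, 0.515% passed in edgeR and 0.0879% in DESeq2, and 17.5% and 5.87% had an unadjusted p under 0.05, so the count of 0 is near this background and is not a result about the transporters. The share of members with an unadjusted p under 0.05 was above that of all genes in both tools, and this difference was not tested. The median log2 difference of injured minus uninjured mice was −0.32 over the members and −0.14 over all genes, −0.20 and −0.05 with scaling by total counts, and −0.22 and −0.01 without WT 1 d replicate 1.

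In Cluster 5, the mean CPM of Slc1a2 was highest at 14 d and lowest at 1 d. There, Slc1a2 was at 7278 and 6433 CPM (WT) and 6442 (cKO) in uninjured mice and at 3792 (WT) and 4639 and 6081 (cKO) 1 d after injury. Slc1a2 stood at 4879 and 9263 CPM (WT) and 5152 and 9827 (cKO) at 7 d and at 8224 and 9564 (WT) and 9401 and 8879 (cKO) at 14 d. The 4 mice at 14 d lay above the 3 uninjured mice and above the 3 mice at 1 d, and the highest single mouse was cKO 7 d replicate 2. The log2 difference of 14 d minus uninjured mice was 0.07 ± 0.89 (SE), with an adjusted p of 1.000 (edgeR quasi-likelihood test, Benjamini-Hochberg). In the mice with numbers of 10000 or more other than those at 14 d, Slc1a2 averaged 7609 CPM. cKO uninjured replicate 1 had too few cells of Cluster 5 to be included.

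In Cluster 5, Slc7a10 was at 1326 and 255 CPM (WT) and 271 (cKO) in uninjured mice and at 773 (WT) and 571 and 208 (cKO) 1 d after injury. Slc7a10 stood at 704 and 458 CPM (WT) and 639.5 and 496 (cKO) at 7 d and at 532 and 343 (WT) and 426 and 244 (cKO) at 14 d. WT uninjured replicate 1 was the highest of the 14 mice, and the times overlapped. The lactate carrier Slc16a1 was at 61.7 and 22.2 CPM (WT) and 21.8 (cKO) in uninjured mice and at 295 (WT) and 214 and 60.3 (cKO) 1 d after injury. Slc16a1 stood at 141 and 47.7 CPM (WT) and 213 and 78.4 (cKO) at 7 d and at 59.8 and 69.4 (WT) and 44.8 and 37.5 (cKO) at 14 d. At 1 d the means were 189.6 CPM against 35.2 in uninjured mice, and 1 of the 3 mice at 1 d lay within the range of the uninjured mice. The log2 difference for Slc16a1 was 1.61 ± 0.67 (SE), with an adjusted p of 0.742 (edgeR quasi-likelihood test, Benjamini-Hochberg). The 4 highest mice were the 4 shallow libraries that share barcodes, where these levels rest on 8, 3, 3 and 6 UMIs, and every other mouse was at 78.4 CPM or less. The 1 d difference was 0.98 ± 0.83 (SE) without these 4 libraries and 2.56 ± 0.77 with all mice and scaling by total counts.

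Of the 18 members tested in Cluster 5, 0 passed in edgeR and 0 in DESeq2, and 2 and 1 had an unadjusted p under 0.05. Over all 7929 genes, 0.0252% passed in edgeR and 0.0504% in DESeq2, and 9.31% and 4.1% had an unadjusted p under 0.05, so the count lies near the background and is not a result about the transporters. The scaling of the fit mattered in this cluster: the TMM factors of the mice ran from 0.574 to 2.05, against 0.884 to 1.22 in Cluster 7. The median log2 difference of injured minus uninjured mice was −0.51 over the members and −0.25 over all genes with TMM, and 0.08 and 0.38 when libraries were scaled by their total counts alone. Without WT 1 d replicate 1 it was −0.20 and −0.08. For Slc1a2, the difference at 7 d was −0.49 with TMM and 0.15 with total counts, and at 14 d 0.07 and 0.46.

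**Figure D3:**
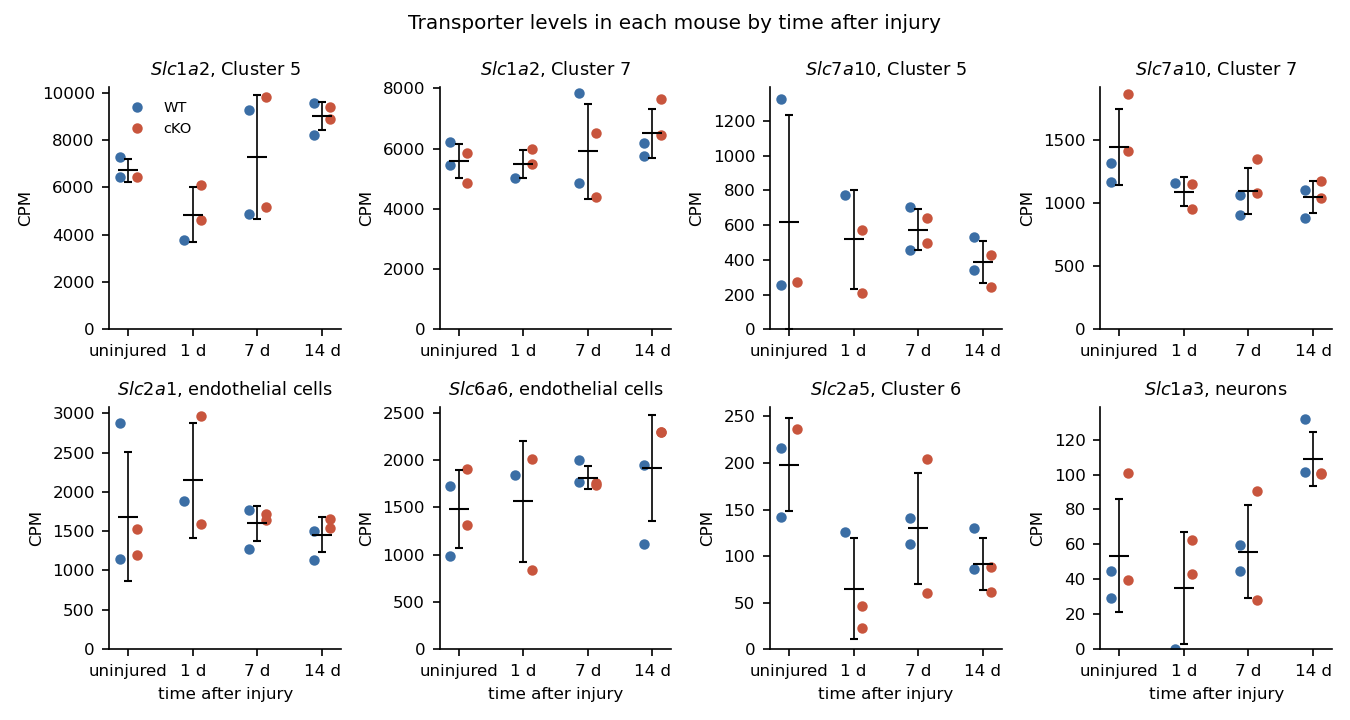
Levels of 6 transporter genes in CPM (vertical axes) in each mouse (points, WT and cKO) by time after injury (horizontal axes), with the mean and SD of each time point. In Cluster 5 the 4 mice at 14 d lie above the uninjured mice for Slc1a2, and in Cluster 6 the 3 uninjured mice lie above the mice at 1 d for Slc2a5.

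In endothelial cells, the main barrier carriers had overlapping levels before and after injury. The glucose carrier Slc2a1 was at 2881 and 1139.7 CPM (WT) and 1528 and 1193 (cKO) in uninjured mice and at 1882 (WT) and 2969.7 and 1586 (cKO) 1 d after injury. Slc2a1 stood at 1768 and 1268 CPM (WT) and 1713 and 1645 (cKO) at 7 d and at 1131 and 1501 (WT) and 1651 and 1545 (cKO) at 14 d. WT uninjured replicate 1 and cKO 1 d replicate 1 were the highest, and all time points overlapped. The taurine carrier Slc6a6 was at 1731 and 990.2 CPM (WT) and 1905 and 1317 (cKO) in uninjured mice and at 1848 (WT) and 2013 and 833 (cKO) 1 d after injury. Slc6a6 stood at 1999.8 and 1767 CPM (WT) and 1733 and 1763 (cKO) at 7 d and at 1109 and 1949 (WT) and 2299.6 and 2302 (cKO) at 14 d. These time points overlapped too. The log2 difference of injured minus uninjured mice was −0.15 for Slc2a1 (95% confidence interval −0.65 to 0.34) and 0.06 for Slc6a6 (−0.45 to 0.57). Differences within these intervals remain compatible with the counts.

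Slc1a2, an astrocyte gene, varied widely between mice in the endothelial cells. There, Slc1a2 was at 36.0 and 1019 CPM (WT) and 46.1 and 768 (cKO) in uninjured mice and at 17.1 (WT) and 49.6 and 596 (cKO) 1 d after injury. Slc1a2 stood at 29.8 and 159 CPM (WT) and 54.5 and 262 (cKO) at 7 d and at 208 and 193 (WT) and 163 and 178 (cKO) at 14 d. The levels divided by animal number without overlap: every mouse below 10000 was at 54.5 CPM or less and every other mouse at 159 CPM or more. The second replicates of WT uninjured, cKO uninjured and cKO 1 d stood above all other mice. The same 3 mice had the highest sums of the 8 astrocyte markers (8 of 8 detected, most abundant S100b), at 1736, 1414 and 1494 CPM, against 171 to 653 in the 12 others. Their oligodendrocyte markers (7 of 7 detected, most abundant Mbp) summed to 7600.2, 7420.2 and 4265 CPM, against 949 to 3072. The authors had moved 1155 of the 4201 cells of this cluster here from Cluster 2, where Slc1a2 was at 4441 ± 1559.5 CPM. With the clusters before the move, Slc1a2 averaged 109 against 252 CPM in the endothelial cells, and the same 3 mice stood at 239, 239 and 372, still the highest. The animal number series then overlapped, with cKO uninjured replicate 1 (below 10000) at 46.9 CPM and WT 7 d replicate 2 at 42.3. The part of the markers in these levels was not tested.

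The log2 difference of injured minus uninjured endothelial cells for Slc1a2 was −2.32 ± 0.77 (SE), with an adjusted p of 0.663 (edgeR quasi-likelihood test, Benjamini-Hochberg). It was −1.35 ± 0.67 with the clusters before the move and −1.02 ± 0.81 without the 4 libraries that share barcodes. With the animal number series in the fit it was −1.83 ± 0.29 (adjusted p = 0.00559) and in the mice numbered 10000 or more −1.94 ± 0.19 (adjusted p = 0.00867), both by the edgeR quasi-likelihood test with Benjamini-Hochberg adjustment. The 2 uninjured mice of that series were among the 3 mice with the highest astrocyte markers, and their part in the difference was not tested. Taking conditions from the cell names gave 0.45 ± 0.91. Leaving out the filter on low counts gave −2.26 ± 0.25, with an adjusted p of 1.36e-16 (edgeR quasi-likelihood test, Benjamini-Hochberg). Of the 25 members tested, 0 passed in edgeR and 0 in DESeq2, and 5 and 2 had an unadjusted p under 0.05. Of all 10985 genes, 0.0091% passed in edgeR and 0.0364% in DESeq2, and 17.6% and 10.1% had an unadjusted p under 0.05, so the count of members lies near the background and is not a result about them. The count depended on the settings: it was 1 without WT uninjured replicate 1, namely Slc1a2 at −2.81 on the log2 scale, and 3 with the animal number series in the fit, among them Slc1a2 and Slc6a11, when 2.14% of all genes passed. The median log2 difference of injured minus uninjured mice was −0.27 over the members and −0.07 over all genes, −0.02 and 0.16 with scaling by total counts, and −0.22 and −0.04 without WT 1 d replicate 1.

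**Figure D4:**
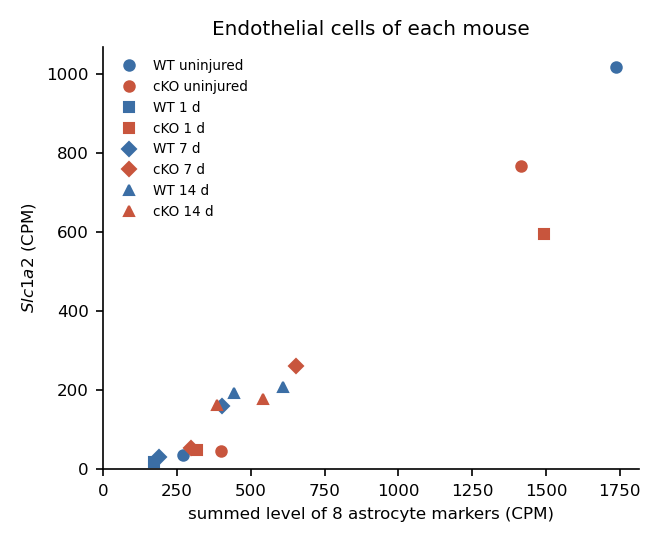
Level of Slc1a2 in CPM (vertical axis) against the summed level of 8 astrocyte markers in CPM (horizontal axis) in the endothelial cells of each mouse (points, by genotype and time). The 3 mice at 596 CPM of Slc1a2 or more are also the 3 highest in astrocyte markers.

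In neurons, Slc1a3, Slc7a11 and Slc7a1 had their highest means at 14 d. In these cells Slc1a3 was at 29.4 and 44.5 CPM (WT) and 101 and 39.3 (cKO) in uninjured mice and at 0 (WT) and 42.8 and 62.3 (cKO) 1 d after injury. Slc1a3 stood at 44.6 and 59.8 CPM (WT) and 28.2 and 90.6 (cKO) at 7 d and at 102 and 132 (WT) and 101 and 101 (cKO) at 14 d. The 4 mice at 14 d lay above the others except cKO uninjured replicate 1, which was within their range. Slc7a11 averaged 63.0 CPM at 14 d against 23.6 in uninjured mice, and its 4 mice at 14 d, at 47.4 and 44.3 (WT) and 95.9 and 64.4 (cKO), lay above the uninjured mice, at 9.79 and 39.5 (WT) and 5.77 and 39.3 (cKO). All mice at 14 d had animal numbers of 10000 or more, and Slc7a11 in neurons was at 0 to 9.79 CPM in the 6 mice below 10000 and at 35.0 to 95.9 in the 9 others. Slc7a1 averaged 70.8 CPM at 14 d against 32.0, also without overlap. By the edgeR quasi-likelihood test with Benjamini-Hochberg adjustment, the 14 d minus uninjured difference was 1.08 for Slc1a3 (adjusted p = 0.146), 1.43 for Slc7a11 (adjusted p = 0.211) and 1.03 for Slc7a1 (adjusted p = 0.229) on the log2 scale.

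The neuronal glycine carrier Slc6a5 was at 137 and 109 CPM (WT) and 107 and 49.2 (cKO) in uninjured mice and at 74.4 and 67.6 (WT) and 74.5 and 83.6 (cKO) at 14 d, with overlap. WT 1 d replicate 1 held 18 neurons with 7570 UMIs, and its count of 0 for Slc1a3, Slc2a1 and Slc6a5 allows a level of up to 396 CPM (3 counts), so that lower levels could not be seen at 1 d in WT. Of the 32 members tested in neurons, 0 passed in edgeR and 0 in DESeq2, and 9 and 3 had an unadjusted p under 0.05. Of all 10238 genes, 0.801% passed in edgeR and 0.00977% in DESeq2, and 20.9% and 8.3% had an unadjusted p under 0.05, so a count of 0 is near the background and is not a result about the members. The median log2 difference of injured minus uninjured mice was −1.13 over the members and −0.82 over all genes with TMM, −1.07 and −0.73 with scaling by total counts, −0.28 and −0.17 with the size factors of DESeq2, and −0.15 and −0.03 without WT 1 d replicate 1. By time point, members and all genes had TMM medians of −3.52 and −2.98 (1 d; −0.73 and −0.39 with DESeq2, and −0.16 and −0.03 without WT 1 d replicate 1), −0.13 and −0.03 (7 d), and 0.01 and 0.04 (14 d). With the animal number series in the fit, 3 members passed, Slc2a1, Slc7a5 and Slc1a2, when 8.76% of all genes passed.

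In Cluster 6, Slc2a5 had its highest mean in uninjured mice. The fructose carrier Slc2a5 was at 216 and 142 CPM (WT) and 237 (cKO) in uninjured mice and at 126 (WT) and 45.8 and 22.8 (cKO) 1 d after injury. Slc2a5 stood at 141 and 113 CPM (WT) and 60.6 and 204 (cKO) at 7 d and at 85.8 and 129.7 (WT) and 88.0 and 61.9 (cKO) at 14 d. All 3 mice at 1 d lay below the 3 uninjured mice, and at 7 d 1 of 4 mice lay within their range. Glucose carrier Slc2a1 was at 12.9 and 9.45 CPM (WT) and 0 (cKO) in uninjured mice and at 63.0 (WT) and 76.3 and 32.0 (cKO) 1 d after injury. Slc2a1 stood at 51.3 and 21.5 CPM (WT) and 56.2 and 60.5 (cKO) at 7 d and at 49.8 and 67.0 (WT) and 28.3 and 37.1 (cKO) at 14 d. All 11 injured mice lay above the 3 uninjured mice, which held 3, 1 and 0 UMIs of Slc2a1, and the count of 0 in cKO uninjured replicate 2 allows a level of up to 47.4 CPM (3 counts). No fold is given for Slc2a1, because the only cKO mouse of the uninjured group was at 0.

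The log2 difference of injured minus uninjured mice for Slc2a5 was −1.28 ± 0.35 (SE), with an adjusted p of 0.423, and that of Slc2a1 had an adjusted p of 0.425 (edgeR quasi-likelihood test, Benjamini-Hochberg). In the 6 clusters tested beside the 4 main ones, 0 of 98 tests of members passed in edgeR and 0 in DESeq2, and 26 and 16 had an unadjusted p under 0.05. Of all 38146 tests of genes in these clusters, 0.199% passed in edgeR and 0.485% in DESeq2, and 16.7% and 8.87% had an unadjusted p under 0.05, so the count of 0 is near the background and is not a result about the members, and the share with an unadjusted p under 0.05 was higher among them. With the replicate number in the fit, 1 member passed, Slc7a5 in Cluster 4 at 14 d, at −3.28 on the log2 scale, when 0.267% of all genes passed in these clusters.

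The 46 partner genes, in 5 lists, were examined in the same fits of Clusters 5 and 7, endothelial cells and neurons. Of 124 tests, 0 passed in edgeR and 0 in DESeq2, and 39 and 27 had an unadjusted p under 0.05. Of all 37118 tests of genes, 0.339% passed in edgeR and 0.0431% in DESeq2, and 16.7% and 7.42% had an unadjusted p under 0.05. Adjusted over the list alone, 5 passed in edgeR and 0 in DESeq2, and the edgeR count was 0 with the conditions of the cell names or without cKO uninjured replicate 2, and 25 with the animal number series in the fit. Among the 36 tests of glutamate and glutamine genes 13 had an unadjusted p under 0.05, among the 20 of GABA and glycine genes 7, among the 27 of lactate and glucose genes 9, among the 27 of heavy chains and amino acid stress genes 6, and among the 14 of thyroid hormone genes 4. Slc3a2 averaged 292 CPM at 1 d in Cluster 7 against 219 in uninjured mice and 141 at 14 d, and Bsg averaged 10387 in uninjured and 7345 in 14 d endothelial cells. Over all 10 tested clusters, 0 of 264 tests of partner genes passed in edgeR and 2 in DESeq2, the 2 in Cluster 10. Of these 264, 72 and 54 had an unadjusted p under 0.05.

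To ask whether loss of Ryk in astrocytes went with other transporter levels after injury, cKO and WT mice were compared over the mean of the 3 injured times. In Cluster 7, Slc1a2 averaged 6079 CPM in 6 injured cKO mice and 5937 in 5 injured WT mice, a log2 difference of 0.12 with a 95% confidence interval of −0.41 to 0.66. Slc7a10 in the same cluster averaged 1124 CPM in 6 injured cKO mice and 1021 in 5 injured WT mice, a log2 difference of 0.14 with a 95% confidence interval of −0.35 to 0.63. Slc2a1 in endothelial cells averaged 1851 CPM in 6 injured cKO mice and 1509.9 in 5 injured WT mice, a log2 difference of 0.27 with a 95% confidence interval of −0.27 to 0.80. The genotypes overlapped for each of these genes. Of the 192 tests of members, 0 passed in edgeR and 0 in DESeq2, and 7 and 3 had an unadjusted p under 0.05. Of all 75264 tests of genes, 0.00133% passed in edgeR and 0% in DESeq2, and 3.31% and 0.902% had an unadjusted p under 0.05, so this count too is near the background and is not a result about the members.

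Slc2a5 in Cluster 6 was at 80.5 CPM in 6 injured cKO mice and 119 in 5 injured WT mice, with an adjusted p of 0.995 (edgeR quasi-likelihood test, Benjamini-Hochberg). Slc6a17 in neurons was at 33.9 and 102 CPM, with an adjusted p of 0.769 by the same edgeR test and Benjamini-Hochberg adjustment. Without WT 1 d replicate 1 the WT mean of Slc6a17 was 61.0 CPM. For the test of whether the difference after injury differed between the genotypes, 0 of 192 tests of members passed in edgeR and 0 in DESeq2, and 12 and 6 had an unadjusted p under 0.05. Of all genes 0.00266% passed in edgeR and 0% in DESeq2, and 4.18% and 1.22% had an unadjusted p under 0.05, so that the count is near the background. With 2 mice or fewer in each condition, differences inside the intervals given remain compatible with the counts, and larger ones could also miss the threshold.

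The 31 members that were neither on the fixed list nor at 50 CPM in any cluster had highest cluster means of 0.0730 to 41.4, with a median of 7.16 and 2 to 903 UMIs in all cells. They were 2 of the Slc1, 8 of the Slc2, 10 of the Slc6, 6 of the Slc7 and 5 of the Slc16 family.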

How the data were processed

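Single cells of mouse spinal cord were sequenced as 10x Genomics 3′ libraries, 1 per mouse. The authors made UMI counts with Cell Ranger on mm10, kept cells with under 25% mitochondrial counts and more than 200 genes, joined the libraries in R 4.1.2 with Seurat, and deposited the counts with a table of cells and clusters. Doublets were not called here.

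From these counts, UMIs were summed per mouse and cluster where a mouse had at least 10 cells of the cluster, and CPM were computed here. The 8 conditions were fitted together in edgeR 4.0.16 (TMM, filterByExpr, quasi-likelihood test, R 4.3.3) with Benjamini-Hochberg adjustment over all genes of a cluster and a threshold of 0.05. For WT 1 d, with 1 mouse, the spread is taken from the other conditions. Clusters with a mouse in every condition were tested, 10 in all, and DESeq2 1.42.0 was run on the same counts. Tables were made with Python 3.11.15, numpy 2.4.6, pandas 2.3.3 and scipy 1.17.1, and figures with matplotlib 3.10.9. Positions are from GENCODE M21 (mm10). The code was tested on simulated data.

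The named members were those of a fixed list and those with a mean of 50 CPM or more in any cluster. The members and the marker and partner lists were chosen with earlier results of these data known. The alternatives were no filter, DESeq2, terms for replicate number or animal number series, the conditions of the cell names, fewer mice or cells, the clusters before the authors' move of cells out of Cluster 2, other CPM thresholds, averaging over cells, and each mouse left out in turn. Leaving out the libraries that share barcodes, leaving out the cells that share them, and scaling by total counts were chosen after seeing the data.

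The batch given in the table of cells equals the replicate number in 16 of 16 mice, so that the numbers pair mice by batch. Deviations of mice with the same number from their condition means had a median r across genes of 0.0961 in Cluster 5, 0.0179 in Cluster 7, 0.0647 in endothelial cells and 0.0329 in neurons, where genes are not independent replicates. Between pairs of conditions r was above 0.1 in 7 of 15, 1 of 21, 10 of 21 and 7 of 21 pairs, and reached 0.503, 0.118, 0.541 and 0.267.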

Additional observations from a re-analysis of the deposited data

Results flagged for a closer look

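Of 169 groups of 4 mice, made by pooling the genotypes at 1 time point for each named member of 50 CPM or more in 6 clusters, 7 held a mouse far from the 3 others. Chance alone picks out about 1 in 20 groups. No explanation was tested for any of them.

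The glial glutamate carrier Slc1a3 was far from the others in WT 14 d replicate 2 in 3 clusters. It was at 1861 CPM in Cluster 6, against 116 to 198 in the 3 other mice at 14 d, at 391 CPM in Cluster 10, against 41.4 to 57.7, and at 132 CPM in neurons, against 101 to 102. In Cluster 6 of this mouse 56 of 56 cells held a UMI of Slc1a3, 1306 in all and up to 97 in 1 cell, and in Cluster 10 39 of 67 cells held 316. Among the endothelial cells of the same mouse, 12 of 214 held 14 UMIs. Slc1a2 had 23 UMIs in the same cells of Cluster 6.

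Among the endothelial cells, Slc1a1 was at 464 CPM in WT uninjured replicate 1, against 249 to 280 in the other uninjured mice. Slc6a6 was at 1999.8 CPM in WT 7 d replicate 1, against 1733 to 1767 at 7 d. In neurons at 14 d, Slc2a1 was at 34.0 CPM in cKO 14 d replicate 2, against 52.0 to 55.5. In Cluster 10 at 14 d, Slc7a8 was at 82.8 CPM in WT 14 d replicate 1, against 194 to 206.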

How the results depend on the processing

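Counts of members passing after injury in endothelial cells, neurons and the 6 other tested clusters, 0 each in edgeR, moved under these alternatives. Without the filter on low counts they were 2, 1 and 3, when 0.914%, 1.37% and 0.276% of all genes passed. With the animal number series as a term they were 3, 3 and 3 (2.14%, 8.76% and 0.923% of all genes), and among mice numbered 10000 or more 5, 3 and 1 (3.4%, 8.25% and 0.534%). Partner genes, 0 in edgeR, numbered 6, 13 and 11 under the same alternatives (0.738%, 3.64% and 4.46% of all genes). cKO against WT gave 1 member without the filter, Slc1a2 in endothelial cells (0.025% of all genes). The cause was not tested. In Clusters 5 and 7, and for genotype by injury, the counts were 0 under every alternative that was run.

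The replicate number as a block gave 1 member in the other clusters, Slc7a5 in Cluster 4 at 14 d (−3.28 on the log2 scale, when 0.267% of all genes passed), and 1 partner gene, Ckb in neurons (0.536%). It changed no other call adjusted over all genes. Adjusted over the list alone, members in Cluster 6 numbered 2 with it against 5.

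Leaving out each mouse in turn gave 0 to 1 members in endothelial cells, the 1 being Slc1a2 without WT uninjured replicate 1 (0.768% of all genes), and 0 to 6 partner genes: 6 without WT uninjured replicate 1 (0.843% of all genes), 2 without cKO uninjured replicate 1 (0.481% in the 3 clusters that hold this mouse) and 1 without cKO 1 d replicate 2 (0.405%). Leaving out any other mouse gave 0.

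Members at 50 CPM or more in neurons, 13, were 28 at 20 CPM and 5 at 100 CPM. Of 57 levels compared under each setting, 4 moved by over 1.5 times. Slc1a2 in endothelial cells, at 252 CPM, was at 109 with the clusters before the move, 146 in cells with 1000 UMIs or more, 394 in mice numbered 10000 or more and 573 when cells were averaged. In Cluster 5, Slc16a1, at 97.6 CPM, was at 46.4 in cells with 1000 UMIs or more, 49.1 in mice numbered 10000 or more and 50.4 without the libraries that share barcodes. Among the mice numbered 10000 or more, Slc1a4 was at 56.7 CPM against 100.3 and Slc2a1 at 62.5 against 110.2. With a pseudocount of 10, 124 of 216 differences between clusters moved by more than 1 SD and 5 changed sign.

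WT 1 d rests on 1 mouse with 18 neurons, 4 libraries had medians of 414 to 548 UMIs per cell, and 17 members had fewer than 100 UMIs, which limits what could be detected.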

Other observations

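Fibroblasts held 15 members at 50 CPM or more and Cluster 2 held 13. Myeloid cells had 10, among them Slc16a3, Slc7a11 and Slc2a3, and 6 without cKO 1 d replicate 1.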
